A study of Homo sapiens with 12 samples.

Results

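The genes described are those of the translation initiation factors and their direct regulators in MEC1, a human B cell line established from chronic lymphocytic leukaemia. With earlier results of these data known, they were chosen by name, as all entries of the splicing table whose gene symbol starts with EIF1 to EIF6. No measured value entered this rule. This gave 2537 of the 721551 splicing events in the table, under 58 of 30275 gene symbols. Of these symbols 54 are initiation factors or their regulators, and 4 are not (EIF2C3, an older symbol of an Argonaute gene, and 3 antisense genes). Cells were of 2 SF3B1 genotypes. SF3B1 is the spliceosome subunit that holds the branch point of the intron, and K700E is its most common substitution in leukaemia. H3B-8800 is a splicing modulator, a small molecule directed at the complex that holds SF3B1. Each genotype was cultured with 75 nM H3B-8800 for 6 h or with DMSO, the solvent control, with 3 samples in each of the 4 groups. WT replicates 1 and 2 carry no listed substitution, WT replicate 3 is labelled with c.2106G>A, and all K700E samples are labelled with c.2098A>G and c.2106G>A. The K700E samples are 3 clones, and each clone or culture is present once in DMSO and once in H3B-8800.

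Initiation factors bring the initiator tRNA, the mRNA and the ribosomal subunits together. eIF2 carries the initiator tRNA as a GTP complex, and eIF2B recharges eIF2 with GTP. The eIF2 kinases phosphorylate the alpha subunit of eIF2, which turns it into an inhibitor of eIF2B, the central switch of the integrated stress response. eIF4E binds the mRNA cap, eIF4G is the scaffold between eIF4E, the helicase eIF4A and eIF3, and the eIF4E-binding proteins keep eIF4E from eIF4G. eIF3 holds the small subunit together with eIF1, eIF1A and eIF5, and eIF5B joins the subunits.

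For each event the table gives a level in percent, which is the inclusion of an exon, the retention of an intron or the use of an alternative splice site. Of the 2537 events 2073 had 20 or more reads in all 12 samples. A further 1445 had a mean level outside 1 to 99%, 41 were introns whose 2 ends were unequally read and 50 were first sites of alternative site events, which repeat the others. The remaining 537 events in 47 genes were tested, namely 192 exons and 240 introns, with 68 alternative 3′ (acceptor) and 37 alternative 5′ (donor) splice sites. An event is called changed at an adjusted p under 0.05 (limma, Benjamini-Hochberg over all events of the table) and a difference of 10 or more percentage points. Values for 6 symbols did not reach 20 reads in any event, and 5 others had no event within the limits. EIF4A1, the main helicase gene, has 22 entries, and its 10 introns hold no spliced reads in the table, so it was not analysed here. EIF1AY, which is Y-linked, enters the counts and no value of it is given. Near-identical copies (EIF1AX and EIF1AY, EIF4A1 and EIF4A2, EIF5A and EIF5AL1, EIF3C and EIF3CL, EIF2S3 and EIF2S3L) may share reads, and their values are uncertain to that extent.

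Libraries held between 45840233 and 56676172 exon-exon junction reads. All 7 B cell markers were read, with a summed level between 3512 and 6736 reads for every 1000000 junction reads (RPM), against at most 1.62 for 7 T and NK cell markers and 1.69 for 5 myeloid markers. Of 5 fibroblast and epithelial markers 4 were read, with a sum of 11.3 to 19.99 RPM. The share of unspliced reads over all introns was 1.86 to 2.43% in the DMSO samples and 4.5 to 6.05% in the H3B-8800 samples. The median gene of the whole table had a log2 change of spliced reads of -0.28 in WT and -0.22 in K700E cells.

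The stretches below are introns of 2 eIF2B genes, shown as examples of retained introns beside one that was not called, and they are taken from the GRCh38 transcripts of GENCODE v29 in the sense of the gene. In the introns, capitals mark the first and last 2 bases and the first stop codon in the reading frame that enters from the exon before. EIF2B2 intron 1 lies at chr14:75003154-75003274, EIF2B2 intron 2 at chr14:75003396-75003550, both on the plus strand, and EIF2B4 introns 5 and 10 lie at chr2:27368464-27368653 and chr2:27366937-27367073 on the minus strand. The first 3 were retained after H3B-8800, and EIF2B4 intron 10 is shown beside them as a short intron of the same gene that was not called.
EIF2B2 intron 1: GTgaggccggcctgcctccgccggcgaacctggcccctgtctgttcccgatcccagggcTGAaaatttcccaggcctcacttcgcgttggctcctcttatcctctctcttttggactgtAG
EIF2B2 intron 2: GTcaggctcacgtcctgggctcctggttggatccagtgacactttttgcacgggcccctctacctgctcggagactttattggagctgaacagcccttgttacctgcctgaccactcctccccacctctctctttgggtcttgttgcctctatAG
EIF2B4 intron 5: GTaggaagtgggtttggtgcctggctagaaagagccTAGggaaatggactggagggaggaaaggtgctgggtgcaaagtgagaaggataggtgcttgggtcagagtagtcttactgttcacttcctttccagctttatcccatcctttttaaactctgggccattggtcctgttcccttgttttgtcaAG
EIF2B4 intron 10: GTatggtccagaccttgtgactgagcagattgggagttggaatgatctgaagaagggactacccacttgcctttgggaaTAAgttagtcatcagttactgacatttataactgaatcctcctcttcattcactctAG

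The reading frame met TGA at base 60 of EIF2B2 intron 1, TAG at base 37 of EIF2B4 intron 5 and TAA at base 80 of EIF2B4 intron 10. EIF2B2 intron 2 holds no stop codon in frame, and the shifted frame ends in the coding sequence that follows it. All 4 introns start with GT and end with AG. In the 20 bases before the 3′ end, 75% were pyrimidines in EIF2B2 intron 1, 70% in EIF2B2 intron 2 and 85% in each of the EIF2B4 introns, so the called and the uncalled EIF2B4 intron had the same share. Over the introns of the set with a sequence in the annotation, without 1 intron of EIF1AY, the 17 called ones had a median of 70% pyrimidines, 46.5% GC and 217 bases, and the 42 others a median of 72.5%, 45.5% and 231 bases.

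The next 2 stretches hold the exon with the largest loss of inclusion in each of EIF2B5 and EIF4A2, written in capitals with the intron bases before them in lower case. The first is the whole 92-base intron 3 and the 178-base exon 4 of EIF2B5 at chr3:184137806-184138075, and the second is the last 100 bases of intron 4 and the 169-base exon 5 of EIF4A2 at chr3:186785783-186786051, both on the plus strand.
EIF2B5 intron 3 and exon 4: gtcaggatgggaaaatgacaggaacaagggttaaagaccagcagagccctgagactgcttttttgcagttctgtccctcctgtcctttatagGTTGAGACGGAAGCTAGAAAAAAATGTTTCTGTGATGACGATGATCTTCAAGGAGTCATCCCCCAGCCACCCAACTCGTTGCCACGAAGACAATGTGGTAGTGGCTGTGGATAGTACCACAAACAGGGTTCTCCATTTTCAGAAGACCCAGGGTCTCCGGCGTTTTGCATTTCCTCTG
EIF4A2 intron 4 end and exon 5: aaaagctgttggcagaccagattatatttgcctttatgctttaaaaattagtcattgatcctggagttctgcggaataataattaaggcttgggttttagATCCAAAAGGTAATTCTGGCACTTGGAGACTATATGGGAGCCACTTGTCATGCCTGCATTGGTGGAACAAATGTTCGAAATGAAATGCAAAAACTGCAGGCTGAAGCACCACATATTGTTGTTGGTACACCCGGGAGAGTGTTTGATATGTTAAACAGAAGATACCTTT

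The 20 bases before the exon were 85% pyrimidines in EIF2B5 and 45% in EIF4A2, so these strongly skipped exons differed in this feature.

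H3B-8800 lowered the inclusion of exons and raised the retention of introns of initiation factor genes in WT cells, and no exon or intron of the set was called in the opposite direction. Inclusion fell for 79 of 192 exons in 26 genes, which is 41.1% of them, beside 40.3% of all exons tested in the table. Retention rose for 49 of 240 introns in 18 genes, which is 20.4%, beside 31.9% of all introns tested. Event counts of the set, here and below, include 2 called exons of EIF2C3 and 1 called intron of the antisense gene EIF3J-AS1, which are not initiation factors. The median difference was -6.11 points over the exons of the set, against -6.88 over all exons, and 3.55 points over its introns, against 4.92 over all introns. At least 1 lower exon or higher intron was called in 32 of the 47 genes (68.1%), beside 75.1% of all genes with a tested exon or intron. The set as a whole was thus near the table's background for exons and below it for introns, and the changes were unevenly spread over the factors.

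eIF2B was the complex with the most calls. It is a decamer of 5 different subunits, encoded by EIF2B1 to EIF2B5. Inclusion fell for 17 of its 25 tested exons and retention rose for 23 of its 42 introns, beside 40.3% of all exons and 31.9% of all introns. eIF2B thus held 23 of the 49 introns called in the set. Every one of the 5 genes had at least 1 called intron.

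EIF2B5 encodes the catalytic epsilon subunit. Inclusion of its exon 4 was 98.7, 98.2 and 98.2% in WT DMSO samples and 40.5, 35.9 and 26.5% in WT H3B-8800 samples. In K700E cells it was 98.5, 99.2 and 98.7% in DMSO and 39.4, 40.8 and 37.7% in H3B-8800. All treated samples lay far below all DMSO samples, and WT replicate 3 was the lowest. The difference was -64.1 points in WT (adjusted p = 1.4e-08, limma) and -59.5 points in K700E cells (adjusted p = 1.5e-08). In the annotated frame, a transcript without exon 4 shifts frame and codes for 217 codons in place of 721, with the new stop codon 1274 bases before the last exon junction. The exons beside it fell with it. Mean inclusion in treated WT cells was 36.0% for exon 3, 38.6% for exon 5, 51.8% for exon 6 and 58.55% for the 198-base exon that follows, all between 98.5 and 98.6% in DMSO. Neighbouring exons share the reads of transcripts that skip several of them, so these values are not independent. Of the introns of EIF2B5, 9 rose, and intron 12 (chr3:184143143-184143441) had the largest difference. Its retention was 16.6% ± 4.3 (SD, n = 3) in WT DMSO samples and 58.8% ± 3.9 in H3B-8800 samples.

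EIF2B4 encodes the delta subunit, which belongs to the regulatory part of eIF2B that senses phosphorylated eIF2. Retention of its 326-base intron 2 (chr2:27369550-27369875) was 4.6, 5.3 and 6.2% in WT DMSO samples and 73.1, 74.6 and 68.2% in H3B-8800 samples. The K700E samples had 5.8, 4.8 and 5.2% in DMSO and 72.9, 70.3 and 67.0% in H3B-8800. Retained transcripts were thus a small minority without the drug and the majority with it in all 6 treated samples. This was the largest intron difference of the set, 66.6 points in WT (adjusted p = 1.9e-08, limma) and 64.8 points in K700E cells (adjusted p = 2.5e-08). The consecutive introns 4 to 9 rose as well, by 24.4 to 41.2 points in WT. Intron 5, printed above, went from 7.0, 9.1 and 7.9% to 40.8, 47.9 and 54.5%. Intron 10 did not pass the test, with 10.0, 10.8 and 8.8% in WT DMSO and 13.3, 12.2 and 12.7% in WT H3B-8800 samples (difference 2.8 points, adjusted p = 0.18), although its 3 treated WT samples lay above the 3 untreated ones. Inclusion also fell for 8 exons of EIF2B4, led by exon 9, from 97.7, 98.4 and 99.3% to 42.5, 52.8 and 55.0%.

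EIF2B2 encodes the beta subunit. It had no tested exon, and 4 of its introns rose. Intron 4 (chr14:75004901-75005865) was retained at 2.7, 4.2 and 4.3% in WT DMSO samples and 57.0, 63.6 and 68.0% in WT H3B-8800 samples. Introns 1 and 2, printed above, went from means of 5.9 and 4.4% to 52.2 and 55.3%, while intron 3, which lies between them and intron 4, was at 0.7% and 6.5% and, at 5.7 points, was not called. Retention thus differed sharply between neighbouring introns of 1 transcript. The 3′ splice site that ends intron 4 also fell, from 93.9, 96.1 and 97.6% to 77.05, 81.48 and 67.08% (adjusted p = 3.9e-05, limma). EIF2B3, the gamma subunit, had 2 called exons, the larger being the 112-base exon 5 with 99.5, 99.3 and 99.6% in WT DMSO and 75.05, 76.58 and 72.03% in H3B-8800 samples. EIF2B1, the alpha subunit, had 2 called introns, 5 and 6, with intron 6 going from 8.6% ± 2.8 to 25.4% ± 5.4 (SD, n = 3).

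**Figure D1:**
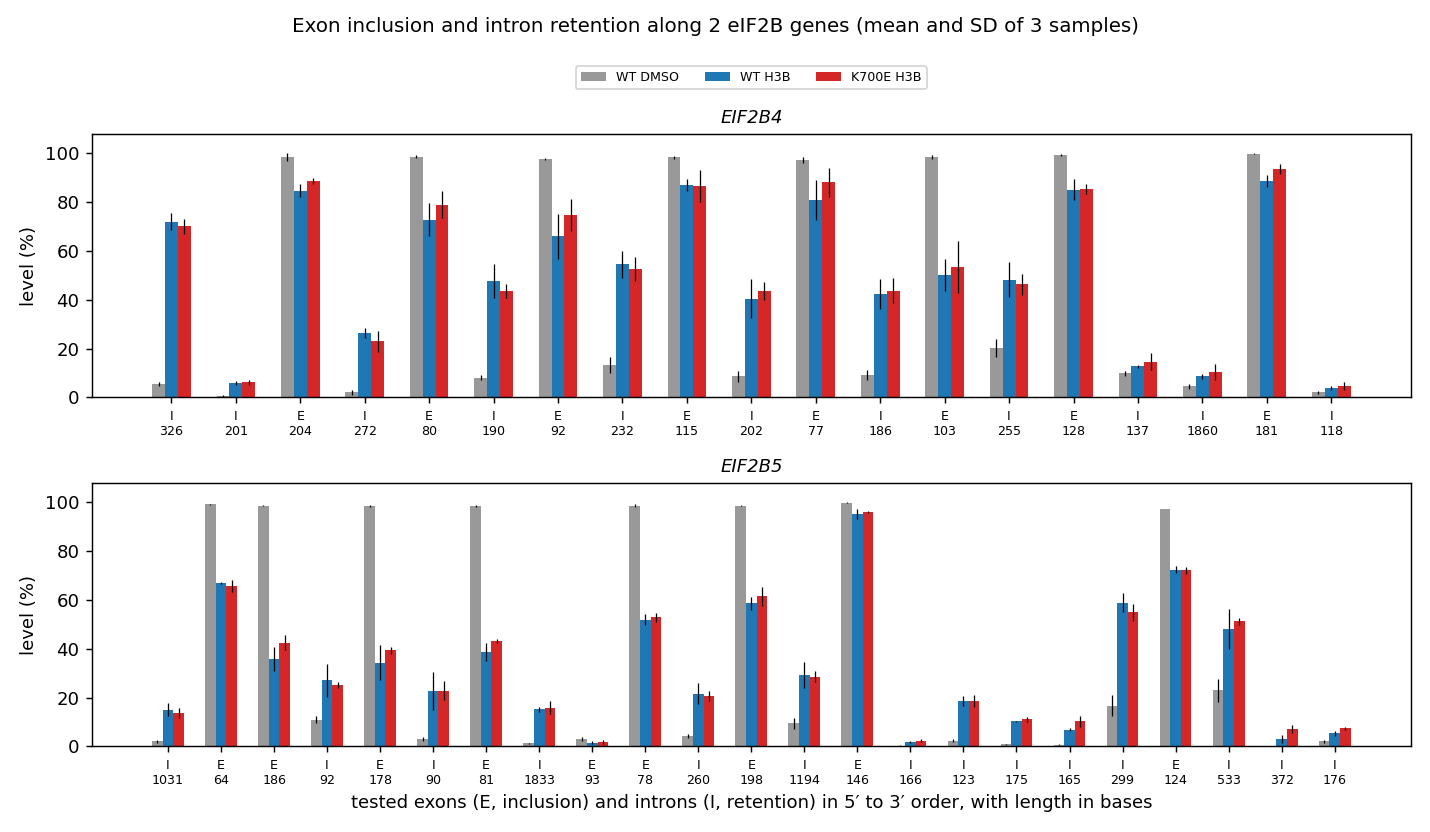
Mean level in percent (bars) with SD over 3 samples (lines) of each tested exon (E) and intron (I) of EIF2B4 and EIF2B5 in 5′ to 3′ order, for WT DMSO, WT H3B-8800 and K700E H3B-8800 samples. Intron 2 of EIF2B4, the first bar group, goes from 5.38 to 71.96% in WT, and exons 3 to 6 of EIF2B5 drop from above 98% to between 34.3 and 51.8%.

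The eIF4G scaffold genes had 17 of 34 exons lower and 7 of 40 introns higher in WT, beside 40.3% of all exons and 31.9% of all introns. Their share of introns was thus below that of the table. EIF4G1, the main scaffold, had 10 lower exons and 6 higher introns. Its 57-base exon 2 in the 5′ UTR (chr3:184315489-184315545) was included at 81.7, 88.0 and 86.5% in WT DMSO samples and 27.3, 32.7 and 30.3% in WT H3B-8800 samples, a difference of -55.3 points (adjusted p = 4.1e-07, limma). Its intron 17 went from 0.3, 0.5 and 0.3% to 26.8, 26.1 and 28.1%. The treated and untreated samples of both events did not overlap in either genotype. EIF4G2 encodes a relative of eIF4G that lacks the eIF4E-binding part, and its 66-base exon 3, which keeps the frame, went from 95.7, 96.1 and 96.1% to 51.5, 51.6 and 48.0% (adjusted p = 7.4e-09). It was the only call among the 3 exons and 14 introns tested in EIF4G2. EIF4G3, a second scaffold, had 6 lower exons, led by the 82-base exon 26, from 98.88 to 99% in the 3 WT DMSO samples to 56.1, 55.5 and 55.4%.

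Among the eIF4A helicases, EIF4A2 was the gene with changes of many kinds. Exon 5, printed above, was included at 95.0, 94.4 and 96.6% in WT DMSO samples and at 32.4, 37.7 and 40.5% in WT H3B-8800 samples, and at 96.2, 94.8 and 94.9% and 44.9, 37.6 and 43.4% in the K700E groups. The difference was -58.5 points in WT (adjusted p = 1.2e-08, limma) and -53.4 points in K700E cells, with no overlap between treated and untreated samples. Without it the frame shifts and 132 of 407 codons are read. Chosen after their values were seen, 2 more events of this gene are given. The 140-base exon 4, which was included at only 54.7, 39.0 and 50.6% in WT DMSO samples, fell to 8.4, 8.7 and 9.7%, and an alternative 5′ splice site 36 bases into intron 2 (chr3:186784432-186784513) rose from 11.5, 7.2 and 6.8% to 55.8, 47.9 and 49.0%. The introns of EIF4A2 also hold the small nucleolar RNAs SNORD2, SNORA81, SNORA63 and SNORA4 in the annotation. EIF4A3, the helicase of the exon junction complex, had 1 called exon, the 63-base exon 4, at 99.5, 99.5 and 99.9% in WT DMSO and 87.0, 88.8 and 88.2% in WT H3B-8800 samples.

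In eIF3, the largest initiation factor, 12 of 40 exons fell and 7 of 52 introns rose in WT. Both are lower shares than in the table as a whole, where 40.3% of exons fell and 31.9% of introns rose. EIF3M, a core subunit, held 5 of the exons. Its 100-base exon 7 (chr11:32594914-32595013) was included at 99.1, 99.1 and 99.2% in WT DMSO samples and 52.1, 52.1 and 52.1% in H3B-8800 samples, with K700E samples at 98.6, 98.9 and 98.8% and 58.3, 58.5 and 69.9%. The K700E treated samples were all above the WT treated ones, and the test of that difference in effect gave an adjusted p of 0.381 (10.5 points, limma). EIF3B, a scaffold subunit, lost inclusion of its 73-base exon 11 from 99.8, 99.6 and 99.7% to 72.4, 70.5 and 69.3%, and its intron 8 rose from 2.3, 3.0 and 3.3% to 28.3, 32.5 and 34.6%. EIF3D, the subunit that can bind caps, had its intron 8 raised from 1.0, 0.8 and 1.2% to 19.92, 22.97 and 26.42%, and EIF3G its intron 5 from 4.9, 6.7 and 6.5% to 27.4, 32.6 and 33.5%. EIF3E lost inclusion of its 115-base exon 2 from 96.8, 97.4 and 98.2% to 77.2, 77.2 and 74.2%. At each of these events the treated and untreated WT samples did not overlap.

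The kinases and the substrate of the stress response had fewer intron calls. Among the 4 eIF2 kinases 7 of 35 exons fell and 1 of 22 introns rose in WT, beside 40.3% of all exons and 31.9% of all introns tested. EIF2AK4 (GCN2, the sensor of uncharged tRNA) lost inclusion of its 45-base exon 37, from 96.4, 90.5 and 91.8% to 57.8, 33.3 and 66.7%, at as few as 30 reads in a sample. EIF2AK2 (PKR, the sensor of double-stranded RNA) lost its 54-base exon 16, from 95.9, 95.8 and 95.3% to 62.7, 58.0 and 56.8%. For eIF2 and its alternatives, 5 of 15 exons fell and none of 17 introns passed, with EIF2A exon 4 at 97.9, 97.5 and 97.8% in DMSO and 63.9, 63.8 and 67.1% in H3B-8800 samples of WT, and EIF2D exon 9 at 94.8% ± 1.4 and 79.3% ± 2.3 (SD, n = 3). The alpha subunit gene EIF2S1 had no tested event.

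On the cap-binding side, 1 of 4 exons and 1 of 3 introns of the eIF4E genes were called in WT, and 3 of 8 exons and 6 of 12 introns of the eIF4E-binding proteins and transporter. The shares over the whole table were 40.3% of exons lower and 31.9% of introns higher. EIF4E, the cap-binding protein, has a 93-base alternative exon (chr4:98886454-98886546) that was included at 38.5, 44.8 and 47.4% in WT DMSO and 21.7, 15.8 and 19.0% in H3B-8800 samples (-24.7 points, adjusted p = 0.0016, limma). In K700E cells the same exon was at 44.9, 44.0 and 40.2% and 34.05, 23.51 and 37.31%, which did not pass (-11.4 points, adjusted p = 0.11), and the difference between the effects gave an adjusted p of 0.76. EIF4E2, a cap-binding relative that represses translation, had its intron 6 raised from 6.9, 7.3 and 7.8% to 43.66, 43.83 and 48.54%. EIF4ENIF1, the protein that carries eIF4E into the nucleus, held all 3 exons and all 6 introns called in the latter group, and its 72-base exon 11 went from 97.4, 95.6 and 94.5% to 50.4, 50.7 and 28.7%.

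In the other groups, EIF1AD, a nuclear relative of eIF1A, lost its 48-base exon 5, from 99.6, 99.5 and 99.1% to 53.8, 54.2 and 49.1%. EIF4H, a cofactor of eIF4A, lost its 188-base exon 2 in a transcript with as few as 24 reads, from 62.5, 68.2 and 55.6% to 15.2, 17.2 and 20.5%. EIF4B, the other cofactor, gained use of the alternative 5′ splice site that lengthens an exon by 21 bases (chr12:53022493-53022627), from 66.6, 67.3 and 65.8% to 92.7, 93.7 and 92.4% (26.4 points, adjusted p = 2.1e-06, limma). For the group of eIF5, eIF5B and eIF6, 6 of 12 exons and 2 of 16 introns were called, beside 40.3% of all exons lower and 31.9% of all introns higher. Among them were the 209-base 5′ UTR exon of EIF5 at 86.7, 83.9 and 86.0% against 70.6, 61.6 and 56.6%, EIF5B intron 19 at 0.70, 1.25 and 1.17% against 21.9, 19.1 and 21.4%, and EIF6 exon 2 at chr20:35284381-35284492 at 98.53, 99.02 and 98.89% against 73.6, 78.4 and 75.2%. EIF5A had 4 tested introns and none was called, the largest difference being 5.8 points. In WT, 3 of 68 alternative 3′ sites rose (4.41%) and 4 fell (5.88%), beside 6.18% and 3.06% of all such sites. Of 37 alternative 5′ sites 5 rose (13.5%) and 1 fell (2.7%), beside 5.33% and 1.72%.

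**Figure D2:**
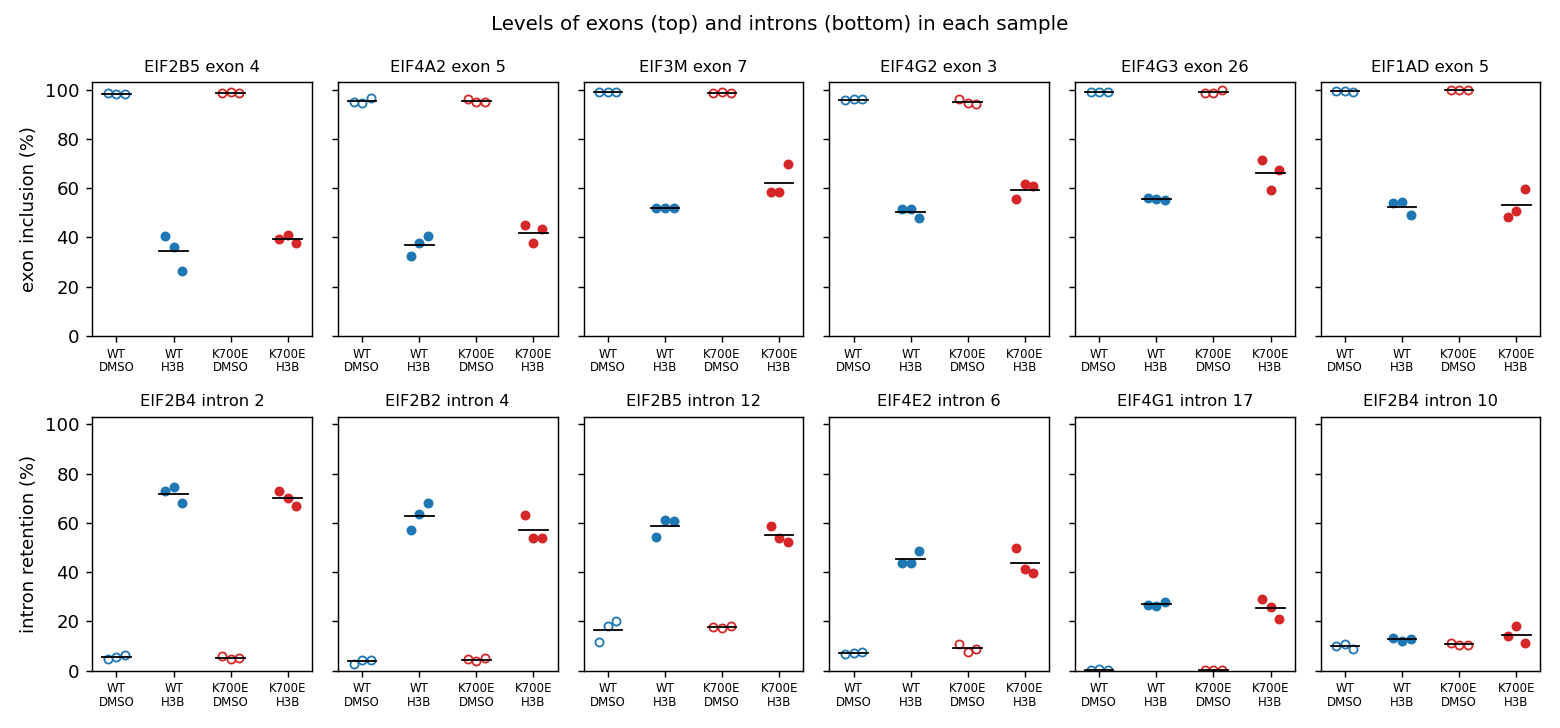
Level in percent of 6 exons (top, inclusion) and 6 introns (bottom, retention) in each of the 12 samples, with open points for DMSO, filled points for H3B-8800, blue for WT, red for K700E and a line at the mean of 3. The exons sit above 94% in DMSO and below 72% in H3B-8800, and EIF2B4 intron 10, the last panel, stays between 8.8 and 18.3% in all samples.

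Skipping or retention would change the reading frame of most, but not all, of these transcripts. Of the 79 exons called in WT, 63 lie in the coding part of an annotated transcript. Leaving them out keeps the frame for 24 and shifts it for 39, and 37 would end in a stop codon more than 50 bases before the last exon junction, the position at which nonsense-mediated decay usually acts. Of the 83 coding exons not called, 27 keep and 56 shift the frame and 52 would end early. Of the called introns 16 had a sequence that could be read, and all 16 led to such an early stop codon, as did 41 of the 43 readable introns not called. These are readings of the annotation and no protein was measured.

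Spliced reads per gene were counted from the exon-exon junctions of all annotated introns of a gene, relative to all junction reads of the library (RPM), with 49 genes of the set tested. In bulk samples, fewer cells of a type and less RNA per cell cannot be told apart. Reads that skip an exon need not be counted at its 2 flanking introns, so skipping can lower this measure too. How far it did so was not tested, and genes with skipped exons differed. In WT the lowest of 15 introns of EIF2B5 changed by -2.15 on the log2 scale. The lowest of 21 introns of EIF4G2 changed by -0.32 and the lowest of 16 of EIF2AK2 by -0.03, although exons of both genes were called lower. In WT cells 15 genes fell and 12 rose, beside 40.8% lower and 18.5% higher of all genes tested. The median log2 change of the set was -0.06, against -0.28 for all genes. When libraries were scaled by the median ratio over genes instead of by their totals, which sets the median gene near 0, 12 genes fell and 24 rose, so the balance of directions depends on the scaling. The share of all genes under that scaling is not given here, so these counts do not compare the set with the table. Each clone or culture was measured with and without the drug, and with the clone as a block 22 genes fell and 17 rose in WT, beside 54.5% and 27.9% of all genes, among them all 15 and 12 called without it. In K700E cells the block gave 20 lower and 16 higher genes, beside 51.5% and 26.9%. Adjusted p-values are without the block unless it is named.

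All 5 eIF2B genes fell. EIF2B5 was at 183.2, 194.6 and 184.7 RPM in WT DMSO and 60.1, 71.7 and 66.1 in WT H3B-8800 samples, and at 174, 180 and 160 against 69.8, 80.1 and 64.1 in K700E cells. The treated samples of both genotypes lay below all untreated ones. The log2 change was -1.51 ± 0.10 (SE) in WT (adjusted p = 4.2e-07, limma) and -1.27 ± 0.10 in K700E cells (adjusted p = 2.3e-06). In WT, EIF2B3 fell by 1.21, EIF2B2 by 0.90, EIF2B4 by 0.81 and EIF2B1 by 0.80 on the log2 scale. All 5 also fell with the other scaling and in K700E cells.

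Of the eIF4G genes, EIF4G3 changed by -1.05 ± 0.11 and EIF4G1 by -0.97 ± 0.12 in WT (log2, SE), while EIF4G2, at 2357, 2236 and 2358 RPM in WT DMSO samples, passed only with the clone block (-0.15, adjusted p = 0.13 without and 0.0021 with it, limma). EIF4G1 was at 1329, 1406 and 1360 RPM in WT DMSO and 666, 756 and 669 in WT H3B-8800 samples. The kinases went in opposite directions. EIF2AK3 (PERK, the kinase of the endoplasmic reticulum stress response) was at 38.3, 36.3 and 42.8 RPM in WT DMSO and 104.6, 92.28 and 102.5 in WT H3B-8800 samples, the largest rise of the set (1.35 ± 0.14, adjusted p = 9.4e-06). EIF2AK4 was at 101, 100 and 63.0 and at 48.4, 46.0 and 28.9, a change of -1.10 ± 0.22 in which the edited WT replicate 3 was the lowest of both groups. EIF2AK1 was at 302.5, 291.5 and 298.3 RPM and 261.4, 255.2 and 260.1 in the WT groups. Its log2 change was -0.20 in WT (adjusted p = 0.24 without and 0.00027 with the clone block, limma) and -0.17 in K700E cells (0.34 and 0.0010), and its treated value was lower in every clone or culture. EIF2AK2 changed by 0.20 in WT (0.25 and 0.0036) and by 0.08 in K700E cells (0.66 and 0.17).

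The cap-binding protein and the helicase cofactors rose. EIF4E was at 191, 189 and 176 RPM in WT DMSO and 320, 323 and 331 in WT H3B-8800 samples (log2 change 0.81 ± 0.08, adjusted p = 5.4e-06, limma). EIF4B changed by 0.69 ± 0.06, EIF4H by 0.51 ± 0.10 and EIF4A3 by 0.46 ± 0.08. Every treated WT sample of these 4 genes lay above every untreated one. EIF4EBP1, an inhibitor of eIF4E, rose by 0.39 on the log2 scale at 10.7 to 18.1 RPM in WT, and EIF4EBP3, whose locus also forms transcripts with ANKHD1, changed by -1.41 ± 0.22 at 1.78 to 7.18 RPM. Its 2 introns disagreed, with log2 changes of 0.32 and -1.67 in WT.

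Changes were small for most eIF3 genes. Of the 12 tested, EIF3M (-0.58), EIF3D (-0.53) and EIF3B (-0.47) fell and EIF3A (0.22) rose in WT on the log2 scale, and the other 8 lay between -0.21 and 0.15. Of these 8, EIF3J (-0.21), EIF3G (-0.17), EIF3E (0.15) and EIF3H (0.15) passed in WT with the clone block. Of the rest, EIF2D (-0.63), EIF5B (-0.61) and EIF2S2 (-0.32) fell, and EIF1AD (0.55), EIF5A (0.42), EIF4A2 (0.30), EIF2S3 (0.25) and EIF1 (0.19) rose. Calls were lost for EIF2S2, EIF2S3 and EIF4A2 without WT DMSO replicate 1, for EIF1 and EIF2S2 without replicate 2 of that group and for EIF1, EIF2S3 and EIF4EBP1 without replicate 3. Without a WT H3B-8800 sample they were lost for EIF1, EIF2S3 and EIF4EBP1 (replicate 1), EIF4A2 and EIF5A (replicate 2) and EIF2S2 and EIF4A2 (replicate 3), and EIF2S2, EIF3B and EIF3M lost theirs with the median ratio scaling. EIF1AX (0.21), EIF6 (0.15) and the weakly read EIF4E3 (-1.31) passed in WT only with the clone block. In K700E cells 14 genes fell and 11 rose, beside 35.8% and 16.2% of all genes, or 9 and 20 with the median ratio scaling.

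**Figure D3:**
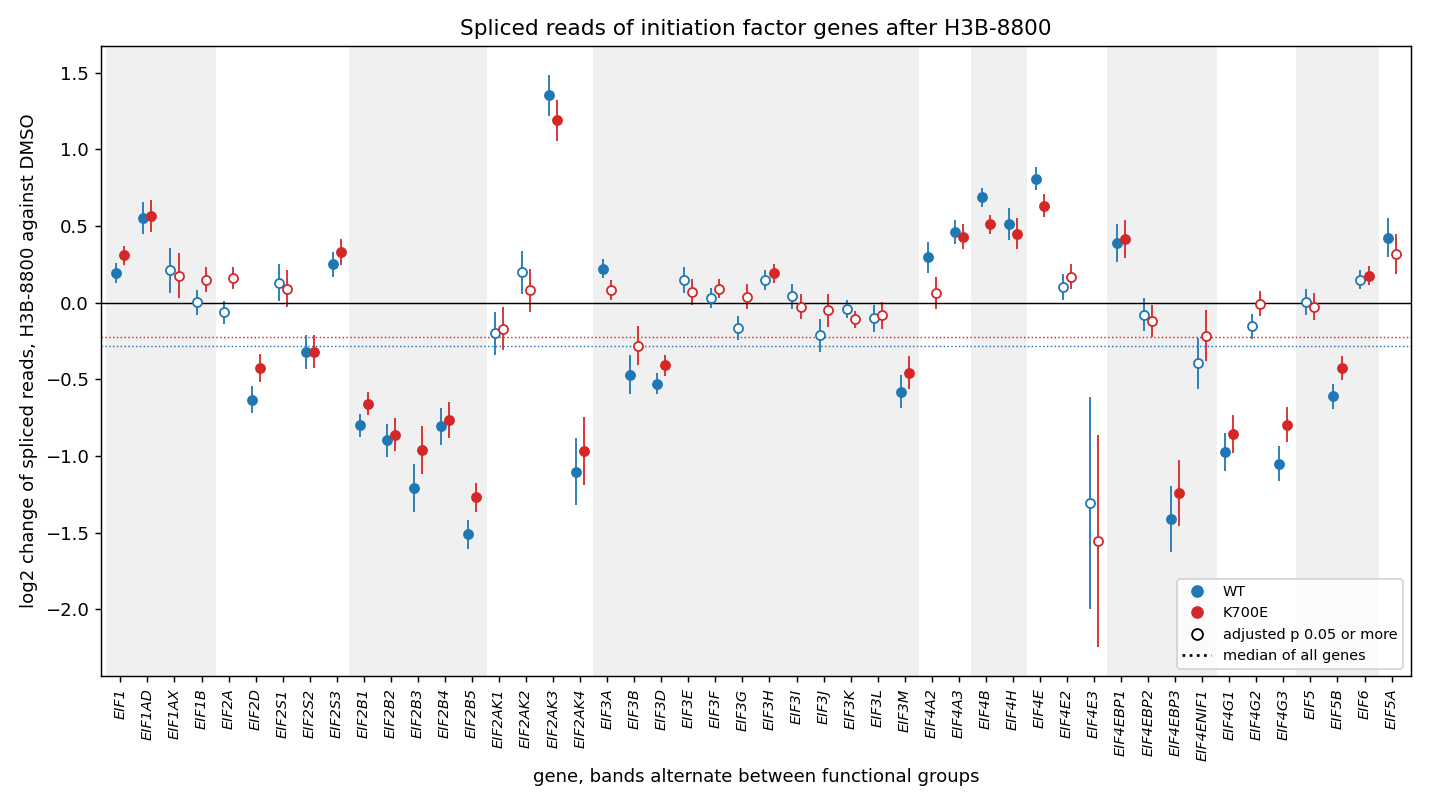
Log2 change of spliced reads, H3B-8800 against DMSO, of each tested initiation factor gene in WT (blue) and K700E (red) cells, with SE bars from limma, filled where the adjusted p is under 0.05, ordered by functional group. The 5 EIF2B genes lie between -1.51 and -0.66 in both genotypes, EIF2AK3 is at 1.35 and 1.19, and the dotted lines give the medians of all genes, -0.28 in WT and -0.22 in K700E.

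Within the set, genes with lower spliced reads held larger shares of called exons and introns than the others, and most of their called introns were in eIF2B. In WT the 15 genes that fell held 51 lower exons (49.5% of their exons) and 36 higher introns of 123 (29.3%). The 5 eIF2B genes, all among these 15, held 17 of the 51 exons and 23 of the 36 introns. The 12 genes that rose held 10 of 26 (38.5%) and 2 of 42 (4.76%), and the 21 named genes that did not pass held 15 of 58 (25.9%) and 10 of 70 (14.3%). Both measures come from the same junction reads, so the relation is a description. When introns beside a called exon were left out of the sums, a setting chosen after seeing the data, all 15 genes that fell and all 12 that rose in WT kept their calls. In K700E cells all 14 lower genes and 10 of the 11 higher ones did.

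Intron by intron, the falls ran along whole genes. All 15 introns of EIF2B5 had fewer spliced reads in WT (log2 change -2.15 to -0.67), as did all 12 of EIF2B4, all 7 of EIF2B2, all 31 of EIF4G1, all 30 of EIF4G3 and all 38 of EIF2AK4. In EIF2B3 the change was -0.63 at the first intron and -2.59 at the last of 11. Rises ran along the whole gene in several cases, with all 16 introns of EIF2AK3 between 1.06 and 1.74, all 6 of EIF4E and all 14 of EIF4B higher. EIF4A2, whose sum rose by 0.30 in WT, was mixed, with 7 of 10 introns higher and 3 lower (-0.27 to 1.27). In K700E cells 5 of its introns were higher and 5 lower (-0.60 to 0.85). EIF4ENIF1 was split, with its first 5 introns higher (up to 0.75) and the later 9 lower (down to -2.99) in WT. Its sum over introns, -0.40, passed only with the clone block (adjusted p = 0.063 without and 0.00099 with it, limma) and describes neither stretch. In EIF5 intron 1 was at 1.93, and the median of its 11 introns was -0.03.

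**Figure D4:**
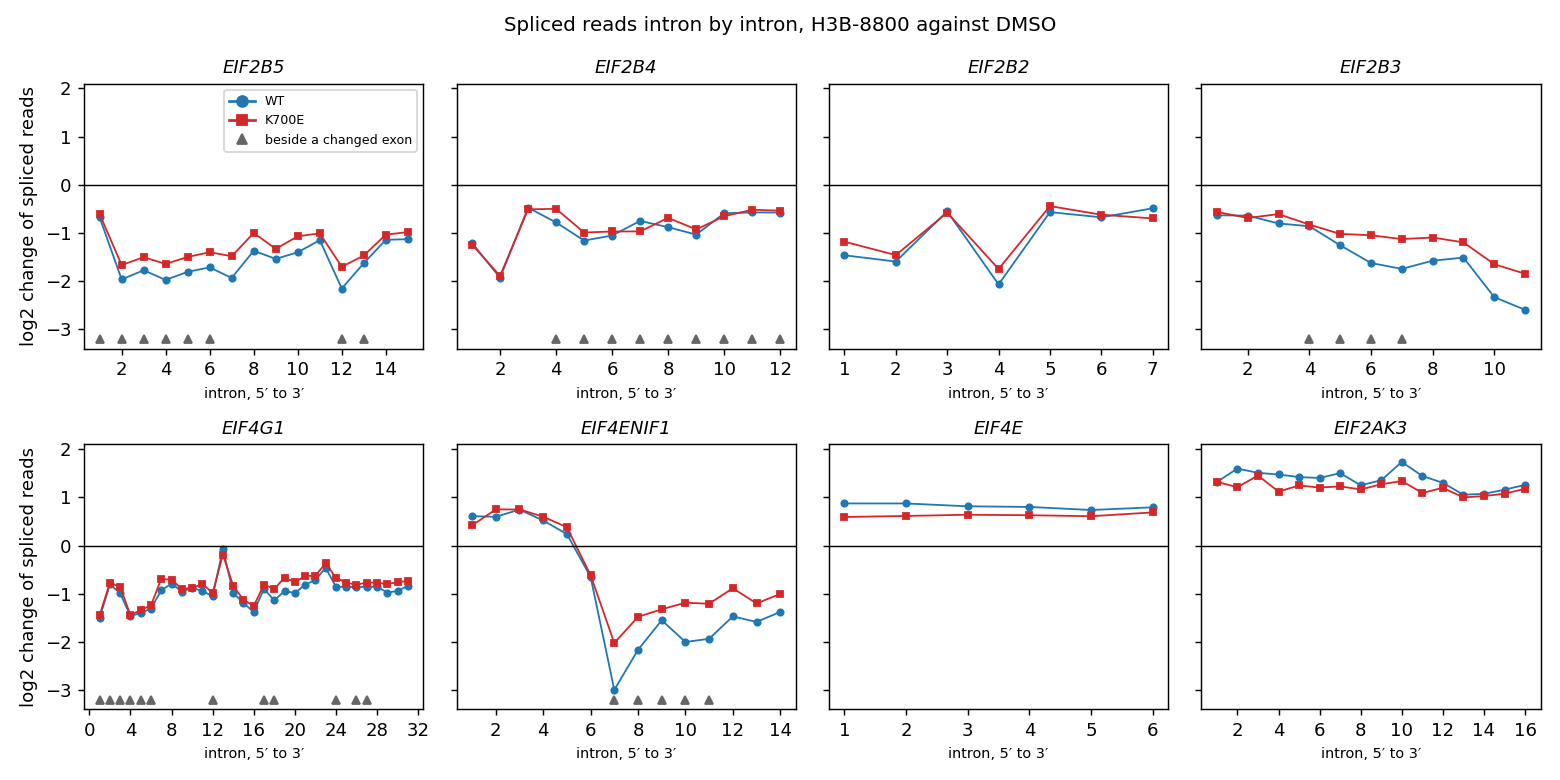
Log2 change of spliced reads, H3B-8800 against DMSO, at each intron with 10 or more mean reads, in 5′ to 3′ order, of 8 genes in WT (blue circles) and K700E (red squares), with triangles below introns beside a called exon. All introns of EIF2B5, EIF2B4, EIF2B2, EIF2B3 and EIF4G1 lie below 0, those of EIF4E and EIF2AK3 above 0, and EIF4ENIF1 crosses from 0.75 to -2.99.

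Levels between genes were compared per annotated intron. In WT DMSO cells EIF5A (129 RPM per intron), EIF1 (124) and EIF4G2 (110) were highest. The eIF2B genes lay between 5.44 for EIF2B4 and 15.1 for EIF2B1, against 46.2 for EIF2S3 of their substrate eIF2. EIF2AK3 (2.45) and EIF2AK4 (2.32) were low, and EIF4E3 (0.135) was the lowest of the tested factors.

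K700E cells shared most of their called events with WT cells. In K700E cells 69 exons fell (35.9%, beside 38.5% of all exons), 68 of them without overlap between samples, and 49 introns rose (20.4%, beside 31.6%). Of the exons, 66 were called in both genotypes, 83.5% of the WT list and 95.7% of the K700E list. Of the introns 45 were, 91.8% of each. Alternative 3′ sites rose in 3 cases (4.41%) and fell in 4 (5.88%), beside 8.26% and 3.97%, and alternative 5′ sites rose in 4 (10.8%) and fell in 2 (5.41%), beside 4.2% and 1.39%. At least 1 lower exon or higher intron was called in 31 of 47 genes (66%), beside 74.8% of all genes. All 82 exons and all 53 introns called in either genotype had the same sign in both. The median difference of those 82 exons was -20.3 points in WT and -17.5 points in K700E cells. These exons were picked by their calls, of which WT had more. Over all 192 tested exons of the set the order was reversed, with medians of -6.11 points in WT and -7.19 points in K700E cells. Over all exons of the table the medians were -6.88 and -6.465 points.

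No event of the set was called for a difference of the drug effect between genotypes, beside 0.00917% of all events. An unadjusted p under 0.05 (limma) was found for 26 of 192 exons, 16 of 240 introns, 6 of 68 acceptor and 2 of 37 donor sites. Without any difference a share of 0.05 would have such a p, and the share over all events was not taken. The nearest to a call was a 67-base exon of EIF4G3, at 97.4, 98.9 and 97.8% in WT DMSO and 95.9, 98.5 and 96.0% in WT H3B-8800 samples, and at 100% in all K700E DMSO and 92.1, 88.4 and 93.5% in K700E H3B-8800 samples. Its difference of effect, -7.4 points (adjusted p = 0.046), is under the limit of 10 points. EIF4G3 exon 10 had the larger difference, with 74.4, 82.8 and 78.3% in treated WT and 87.7, 89.8 and 88.9% in treated K700E samples (11.5 points, adjusted p = 0.22). On spliced reads no gene of the set passed, and 0 had an unadjusted p under 0.05 (limma), beside 0% lower and 0.0491% higher of all genes. With the clone as a block 0 genes of the set passed, beside 1.29% lower and 4.76% higher of all genes. A p that misses the threshold does not show that the effects are equal, and the test of events missed most moderate differences in simulated data where few events changed.

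**Figure D5:**
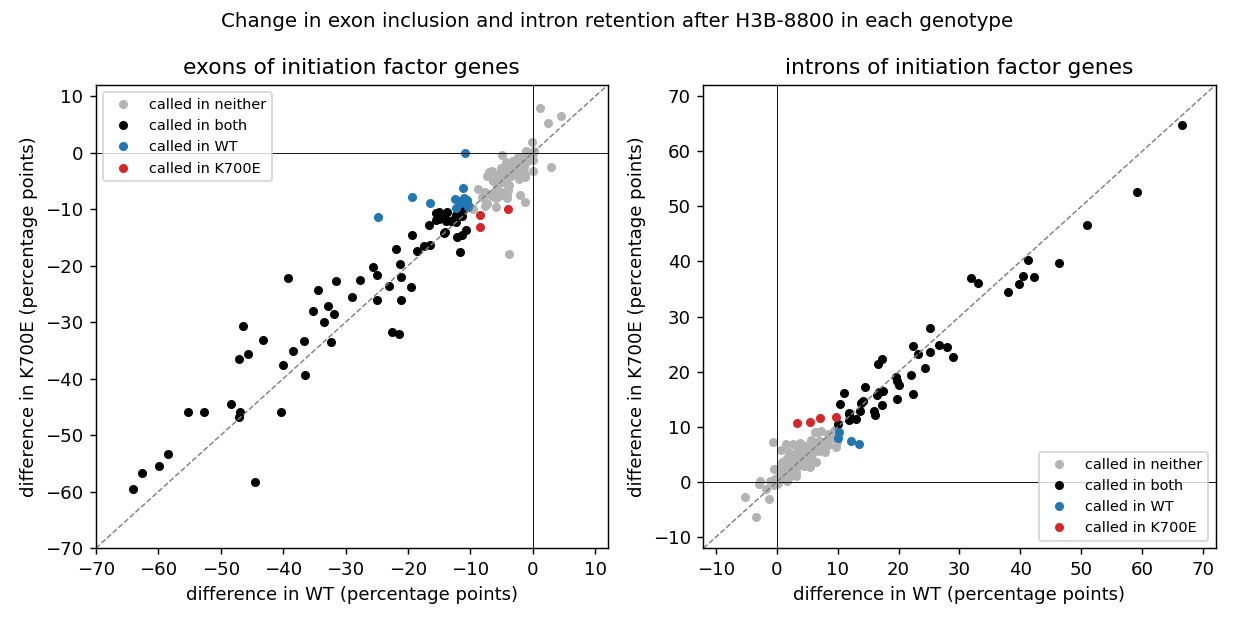
Difference in percentage points, H3B-8800 minus DMSO, in WT (x axis) and K700E cells (y axis) of each tested exon (left) and intron (right), black where called in both genotypes, blue in WT, red in K700E and grey in neither, with the line of equal differences dashed. Called exons lie in the lower left and called introns in the upper right. Of the 82 exons called in either genotype, 61 had the larger difference in WT, while the median over all 192 tested exons was -6.11 points in WT and -7.19 in K700E cells.

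Without the drug, no event of the set was called between K700E and WT cells, beside 0.349% of all events. An unadjusted p under 0.05 (limma) was found for 38 of 192 exons, 38 of 240 introns, 16 of 68 acceptor (3′) and 7 of 37 donor (5′) sites. Without any difference a share of 0.05 would have such a p, and the share over all events was not taken. On simulated data the test of events, which weights all events equally, missed most moderate differences where few events changed, so the absence of calls says little about how alike the genotypes are. At any size of difference, 9 events passed the adjusted p with higher and 7 with lower levels in K700E cells, beside 1.29% and 0.737% of all events. Of the 68 alternative 3′ sites 4 were higher (5.88%) and 3 lower (4.41%), beside 6.54% and 2.41% of all such sites, and none of the 37 alternative 5′ sites passed. The members named next were chosen after their values were seen. An alternative 3′ site of EIF4A2 (chr3:186787479-186787522) was used at 1.06, 1.36 and 1.81% in WT and 4.62, 6.10 and 7.62% in K700E cells (adjusted p = 0.00058), and another of EIF3B at 0.68, 1.05 and 0.75% and 4.19, 3.23 and 3.36% (adjusted p = 0.0012). At both sites the lowest K700E value exceeded the highest WT value.

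The 87-base exon 4 of EIF4G1 was included at 84.1, 89.0 and 86.6% in WT DMSO and 76.6, 75.7 and 76.0% in K700E DMSO samples, a difference of -10.5 points that did not pass (adjusted p = 0.11, limma). It passed where events were weighted by their reads or tested in percentage points. On spliced reads 1 gene differed, beside 1.95% lower and 2.91% higher of all genes. EIF3E, a subunit of eIF3, was at 709, 666 and 603 RPM in WT and 406, 441 and 456 in K700E DMSO samples (log2 difference -0.60 ± 0.08, adjusted p = 0.0038). The treated samples kept this order, with 805, 697 and 690 in WT and 452, 439 and 477 in K700E cells. EIF4E3, at 1.15, 0.573 and 0.703 in WT and 2.13, 3.04 and 7.21 in K700E cells, did not pass (2.21 ± 0.69, adjusted p = 0.094), although the groups did not overlap.

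Other genes of the translation pathway moved in both directions. Of 45 listed partners 44 were tested on spliced reads, and 14 fell (31.8%) and 13 rose (29.5%) in WT, beside 40.8% and 18.5% of all genes. In K700E cells 11 fell (25%) and 15 rose (34.1%), beside 35.8% and 16.2% of all genes. With the clone block 18 of the 44 fell and 21 rose in WT, beside 54.5% and 27.9% of all genes. MKNK2, a kinase of eIF4E (-1.49), ABCE1, which recycles ribosomes (-1.03), TSC2, an inhibitor of mTOR signalling (-0.99), and MTOR itself (-0.72) fell in WT on the log2 scale. PPP1R15A, the stress-induced subunit of the eIF2 phosphatase (1.04), RHEB, the activator of mTOR (0.88), and the elongation factor gene EEF1A1 (0.43) rose. Of the partners' exons 101 of 248 fell (40.7%) and of their introns 91 of 293 rose (31.1%) in WT, which is close to the 40.3% and 31.9% of the whole table. ATF4, the transcription factor whose translation rises when eIF2 is phosphorylated, passed after H3B-8800 only with the clone block (-0.17 in WT, adjusted p = 0.22 without and 0.021 with it, limma), and it was 1 partner gene with a difference between genotypes in DMSO (0.46 higher in K700E cells, adjusted p = 0.045).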

How the data were processed

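RNA from 12 MEC1 samples was sequenced as poly(A) libraries, each in 3 paired-end runs, per the labels' protocols. Reads were trimmed with cutadapt 2.4 and set against hg38, per the submitters' processing notes; no source used here names the aligner or the event caller. A further 36 columns of single runs were not used. The deposited table gives, per event and sample, a level in percent and a quality field with inclusion and exclusion reads, from which the read counts were taken. Events were tested with limma 3.58.1 (R 4.3.3) on log2((inclusion + 0.5)/(exclusion + 0.5)), and spliced reads per gene on log2 RPM (0.5 added, mean of 50 reads or more), both with a trend, all 12 samples as 4 groups and Benjamini-Hochberg adjustment over the whole table; no event was imputed. The scripts were tested on simulated data, where the gene test recovered nearly all changes and the event test recovered most large ones but, where few events changed, hardly any moderate ones. Weights from read numbers or percentage points recovered most moderate ones over the size threshold. Replicates of a group differed beyond sampling noise (chi-square per gene 19.3 to 167). The same clones in DMSO and H3B-8800 pair the samples by their labels. Over the tested events, the correlations of their deviations from the group means were 0.0147 to 0.0695. No such correlation was taken for spliced reads, where the clone block raised the counts of calls. P-values measure the spread between clones and cultures. Alternatives were weights, points, filters, thresholds, scaling, a clone block and leaving out samples. Named events are called, non-overlapping events ranked by size, 1 per gene (25 for WT, 10 for each other comparison), and the largest exon and intron of each functional group. The members and lists were chosen with earlier results of these data known.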

Additional observations from a re-analysis of the deposited data

How the results depend on the processing

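The thresholds moved the counts most. At 20 points, 41 exons and 22 introns, 2 acceptor (3′) and 3 donor (5′) sites were called in WT, and 39, 21 and 0 exons, introns and alternative 3′ sites in K700E cells. At 5 points, 90 introns and 14 alternative 3′ sites were called in WT, 105 exons, 100 introns and 15 alternative 3′ sites in K700E cells, and 1 difference of effect. With first sites included, 10 alternative 5′ sites were called in each genotype. For K700E against WT in DMSO, 1 event was called with read weights and 1 with percentage points, both EIF4G1 exon 4, and 0 to 1 when a sample was left out (without K700E DMSO replicate 3, the 111-base exon of EIF4A2); the difference of effect had 1 with percentage points, EIF4G3 exon 10. Median ratio scaling called 24 genes higher in WT, 9 lower and 20 higher in K700E cells, and 2 lower between genotypes. Leaving out a sample gave 0 to 1 genes higher between genotypes, EIF4E3 without K700E H3B-8800 replicate 1 or 3. The cause was not tested, except that thresholds and first sites change what is counted. With the replicate block by clone, 79 exons and 49 introns were called in WT and 68 and 49 in K700E cells, and 22 genes were lower and 17 higher in WT and 20 and 16 in K700E cells. Leaving out each sample gave 76 to 79 exons and 46 to 53 introns in WT, 65 to 70 and 46 to 53 in K700E cells. Low read numbers limit EIF4H exon 2, EIF2AK4 exon 37 and EIF4E exon 6.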
